A study of Homo sapiens with 12 samples.

Results

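KLHL, KBTBD and KCTD genes encode adaptor proteins that share a BTB domain, and 58 of them were followed here on expression arrays of HEK293T cells in which MED26 was depleted. They were chosen by name: every gene whose symbol starts with KLHL, KBTBD or KCTD, that is not a pseudogene, and that has a probe set naming it alone. Each gene was read from its brightest probe set, the one with the highest mean over all 12 arrays, so measured values chose the probe set but no comparison between groups entered the choice. They are 58 of the 19775 genes with such a probe set, and fall into 42 kelch genes (34 KLHL and 8 KBTBD) and 16 KCTD genes. KCTD7 and KCTD14 are named only on probe sets shared with another gene and were not analysed here.

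The BTB domain of these proteins binds the scaffold cullin 3, and in the kelch proteins a propeller of kelch repeats holds the substrate, so that each adaptor brings its own target to a cullin-RING ubiquitin ligase. KCTD proteins have a related BTB domain without kelch repeats. Some of them act with cullin 3, while others bind ion channels, GABA-B receptors or transcription factors instead. Inherited faults in these genes affect, among other tissues, the kidney tubule, muscle and nervous system.

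HEK293T is an established line from human embryonic kidney that expresses large T antigen of SV40. All cells were transfected, and RNA was taken after 48 hours. The 4 groups, of 3 arrays each, received 25 nM of non-targeting control siRNA (labelled wt) or of 1 of 3 siRNAs against MED26, a Mediator subunit: s18074, s18075 or s18076. The sample labels give each control array a different non-targeting siRNA of the supplier, the protocol names a single one, and the labels do not say that replicates were separate cultures, so a p-value speaks only of how far these arrays differ among themselves, and that may be technical. Values are log2 of the deposited intensity. A fold change is a difference of group means on that scale, knockdown minus control, with the standard error (SE) of the limma model, and a gene was called where the Benjamini-Hochberg adjusted p over all 19775 genes was under 0.05. Every siRNA was compared with the same 3 control arrays, so the comparisons are not independent of each other, and the mean of the 3 siRNAs leaves out the spread between siRNAs.

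MED26 itself averaged 9.85 ± 0.02 (SD, n = 3) in the controls and kept 46.6% of its control signal with s18074, 67.5% with s18075 and 47.3% with s18076, so by that signal it was depleted in part in every group. These values are from its brightest probe set, which fell by 0.92 in the mean of the siRNAs. The average of its 3 probe sets fell by 0.26 ± 0.07 there (limma, adjusted p = 0.0277), so the others fell less or not at all. Array medians lay between 72.3 and 73.8 on the linear scale. Of 12 markers listed for HEK293T cells 5 lay above the 80th percentile of all genes, vimentin, N-cadherin, keratin 18 and both neurofilament chains, while the kidney markers PAX2 and LHX1 (6.54 in the controls for each) lay near the 40th percentile. The summed level of the 12 ran from 14.1 to 14.2 in the controls and from 13.7 to 14.0 in the knockdown arrays, with WT1 called higher and EPCAM, NEFL and NEFM lower. The summed fibroblast markers ran from 9.57 to 9.67 in the controls and from 9.40 to 9.60 in the knockdown arrays, with COL3A1 and LUM called lower, and the blood cell markers ran from 8.31 to 8.59 and from 8.25 to 8.53. The part of these markers in the results on the adaptors was not tested.

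The kelch genes were called higher more often than lower, and the KCTD genes the reverse. In the mean of the 3 siRNAs 13 kelch genes rose, 4 fell and 25 did not pass. Of the KCTD genes 2 rose, 4 fell and 10 did not pass. Together 23 of the 58 were called, 15 higher and 8 lower, where over all genes 20.3% were called, 10.2% higher and 10.2% lower. Of the kelch genes 31.0% were higher and 9.52% lower, and of the KCTD genes 12.5% and 25%. The kelch share lower and the KCTD share higher lie near those of all genes. In bulk RNA, fewer cells that express a gene and less of its RNA in each cell cannot be told apart.

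The median log2 fold change was 0.05 over the 42 kelch genes and -0.11 over the 16 KCTD genes, beside 0.00 over all genes. The changes ran from -0.28 to 0.77 among the kelch genes and from -0.54 to 0.35 among the KCTD genes. Dim genes are called less often, and 15 of the 58 lie in the dimmest 40% of all genes. Outside that part 16 of 31 kelch genes were called, 12 higher and 4 lower, and 4 of 12 KCTD genes, 1 higher and 3 lower, where 30.6% of all genes outside it were called, 15.2% higher and 15.4% lower. The 33.3% of KCTD genes called there lies near the share of all genes. Whether the kelch and KCTD groups differ was not tested, since the genes were chosen with results of these data known.

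**Figure D1:**
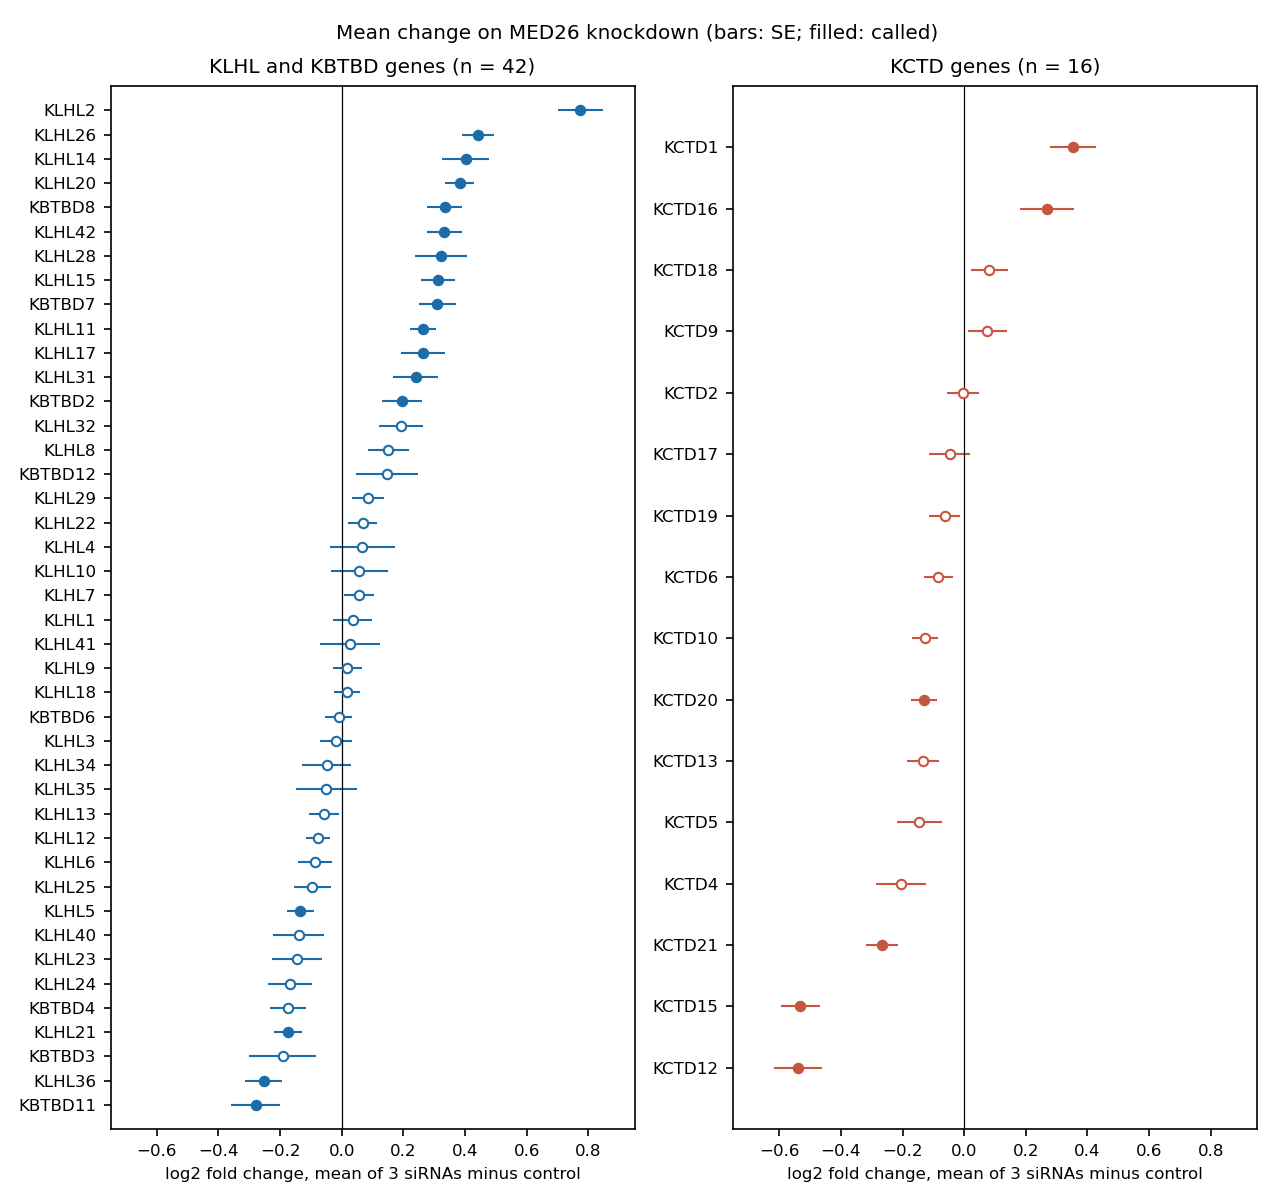
Log2 fold change of each of the 58 genes in the mean of the 3 siRNAs against control (x axis), kelch genes on the left and KCTD genes on the right, with the SE as bars and filled points for called genes. KLHL2 stands highest at 0.77, and KCTD12 and KCTD15 lowest at -0.54 and -0.53.

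The direction of these counts was the same with each siRNA, and their size was not. Of the 42 kelch genes 5 were called higher and 2 lower with s18074, 10 and 3 with s18075, and 14 and 1 with s18076. Of the 16 KCTD genes 1 was higher and 5 lower with s18074, 1 and 6 with s18075, and 1 and 4 with s18076. The shares called over all genes were 14.2% with s18074, 16.9% with s18075 and 18.9% with s18076, of which 6.67%, 8.11% and 10.3% of all genes were higher and 7.55%, 8.77% and 8.62% lower. With s18074 the 7 kelch genes called are 16.7% of their group, close to the share over all genes. Without s18074 replicate 2 the 13 adaptors called with s18074 became 8.

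**Figure D2:**
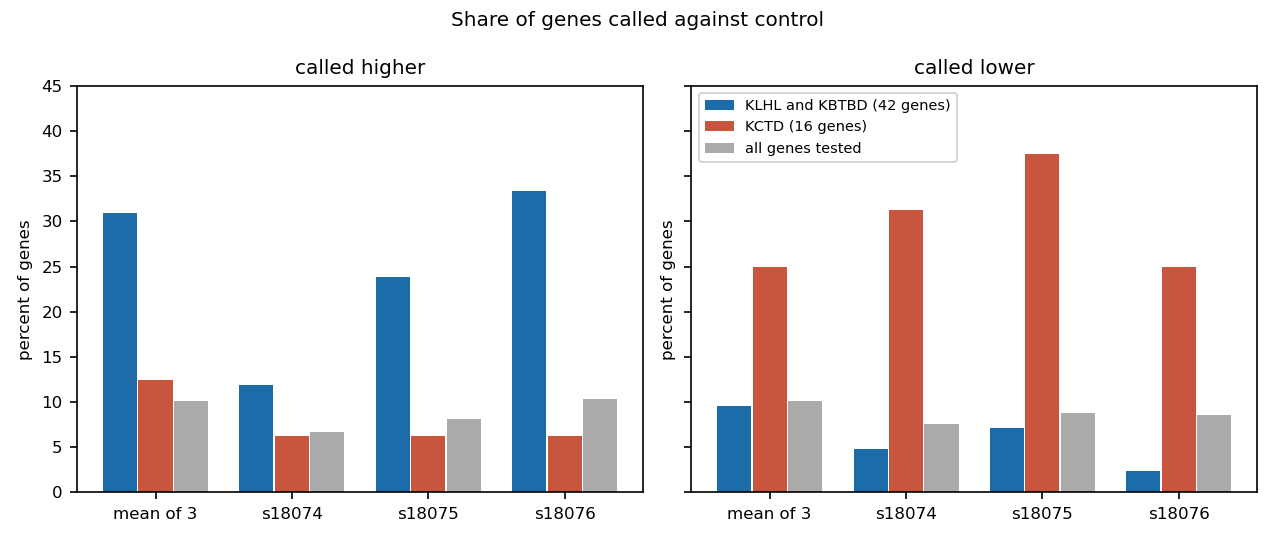
Percent of genes called higher (left) and lower (right) against control in the mean of the 3 siRNAs and with each siRNA, for kelch genes (blue), KCTD genes (red) and all genes tested (grey). With s18076 33.3% of the kelch genes were higher and 2.38% lower, and with s18075 37.5% of the KCTD genes were lower.

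With every one of the 3 siRNAs 7 genes were called in the same direction: KLHL2, KLHL26, KLHL20 and KLHL15 higher, and KCTD12, KCTD15 and KCTD21 lower. Over all genes 3.52% were called higher with all 3 siRNAs and 3.13% lower. Promoter sequence of these genes is shown here because they moved together in each group. The set of RefSeq promoters (GRCh38.p14) used here holds a start for 47 of the 58 genes and for 6 of these 7, all but KCTD15. Absence from this set does not mean that RefSeq lists no start. The 250 bases before the first start listed on the gene's strand follow, 5′ to 3′ on that strand. KLHL2 and KLHL26 have a further listed start each, which was not used. Capitals mark matches on either strand to 1 of 5 motifs, and matches that adjoin or overlap run together. The GC box, which Sp factors are known to bind, was searched for as GGGCGG. The CCAAT box, known for NF-Y, was searched for by the letters of its name. For ETS factors such as GABPA the letters were CCGGAAG, for the E-box of basic helix-loop-helix factors they were CACGTG, and for the TATA box of the core promoter they were TATAAA.
The sequences lie at chr4:165207311-165207560 (+) for KLHL2, chr19:18636778-18637027 (+) for KLHL26, chr1:173714731-173714980 (+) for KLHL20, chrX:24027187-24027436 (-) for KLHL15, chr13:76886406-76886655 (-) for KCTD12 and chr11:78188627-78188876 (-) for KCTD21.
KLHL2: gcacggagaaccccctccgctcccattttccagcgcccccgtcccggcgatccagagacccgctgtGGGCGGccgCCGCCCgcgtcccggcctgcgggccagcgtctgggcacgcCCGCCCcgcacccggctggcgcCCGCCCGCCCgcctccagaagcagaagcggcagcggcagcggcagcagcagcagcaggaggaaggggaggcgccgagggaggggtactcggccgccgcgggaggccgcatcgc
KLHL26: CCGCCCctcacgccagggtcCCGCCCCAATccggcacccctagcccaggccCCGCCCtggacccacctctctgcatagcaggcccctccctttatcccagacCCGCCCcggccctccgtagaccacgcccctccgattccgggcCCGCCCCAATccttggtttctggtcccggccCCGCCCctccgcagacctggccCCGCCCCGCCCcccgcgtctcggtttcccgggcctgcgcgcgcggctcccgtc
KLHL20: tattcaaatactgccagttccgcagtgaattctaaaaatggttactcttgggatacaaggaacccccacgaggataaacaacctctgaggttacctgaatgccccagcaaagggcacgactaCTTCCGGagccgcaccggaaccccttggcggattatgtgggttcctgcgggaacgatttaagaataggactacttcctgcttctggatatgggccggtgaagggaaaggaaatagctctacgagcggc
KLHL15: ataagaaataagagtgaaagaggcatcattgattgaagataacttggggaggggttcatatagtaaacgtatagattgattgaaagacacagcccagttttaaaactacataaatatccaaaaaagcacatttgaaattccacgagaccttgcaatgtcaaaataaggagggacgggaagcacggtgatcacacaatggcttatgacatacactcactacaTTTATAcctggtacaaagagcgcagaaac
KCTD12: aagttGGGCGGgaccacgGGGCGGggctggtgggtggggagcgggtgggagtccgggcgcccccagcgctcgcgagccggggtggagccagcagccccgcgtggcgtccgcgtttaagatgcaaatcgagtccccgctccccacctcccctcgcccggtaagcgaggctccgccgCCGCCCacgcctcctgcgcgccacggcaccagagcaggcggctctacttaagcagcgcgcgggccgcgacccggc
KCTD21: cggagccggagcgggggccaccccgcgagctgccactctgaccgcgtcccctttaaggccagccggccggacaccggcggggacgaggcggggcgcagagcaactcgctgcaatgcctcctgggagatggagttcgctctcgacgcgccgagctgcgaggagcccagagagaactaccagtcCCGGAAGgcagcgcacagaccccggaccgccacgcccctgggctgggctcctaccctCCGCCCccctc

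Among the risers, KLHL2 holds 5 GC boxes and KLHL26 holds 8 with 2 CCAAT boxes, whereas KLHL20 holds none and a single ETS motif, and KLHL15 only a TATA box. Among the genes that fell, KCTD12 holds 3 GC boxes, and KCTD21 holds 1 with an ETS motif. The G and C content is 78.4% for KLHL2 and 38.0% for KLHL15, so the 4 promoters of the risers are not alike in composition. Among the 27303 promoters listed there, 42.2% hold a GC box in this window, 33.0% a CCAAT box, 8.78% an ETS motif, 6.46% an E-box and 11.2% a TATA box. Over the listed members a GC box stands in 18 of 35 kelch promoters and 10 of 12 KCTD promoters. The median G and C content was 65.2% over the listed members and 57.6% over all promoters, and its part in these counts was not tested. A match is a run of letters and shows no binding.

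KLHL2, also known as Mayven, binds actin and presents WNK kinases for degradation. Its signal was 8.43, 8.54 and 8.76 in the controls, 9.24, 9.26 and 9.27 with s18074, 9.35, 9.27 and 9.33 with s18075, and 9.29, 9.58 and 9.56 with s18076. Every knockdown array lay above every control, and the controls varied more than the s18074 or s18075 arrays. KLHL2 rose by 0.68 ± 0.09 (log2, SE) with s18074, 0.74 ± 0.09 with s18075 and 0.90 ± 0.09 with s18076, and by 0.77 ± 0.07 in the mean (limma, adjusted p = 2.07e-05). It is read from a single probe set. KLHL3, its closest relative, whose mutations cause a salt-sensitive hypertension through WNK kinases, gave -0.02 ± 0.05 and was not called with any siRNA.

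KLHL26 was at 7.80, 7.90 and 7.84 in the controls. It measured 8.40, 8.29 and 8.26 with s18074, 8.21, 8.06 and 8.24 with s18075, and 8.41, 8.40 and 8.34 with s18076. No knockdown array overlapped the controls, and the s18075 arrays were the nearest to them. The rise was 0.44 ± 0.05 in the mean (adjusted p = 9.11e-05). KLHL20, the adaptor for the tumour suppressors PML and DAPK1, went from 8.72, 8.79 and 8.79 in the controls to 9.04, 9.18 and 9.11 with s18074, 9.03, 9.08 and 9.13 with s18075, and 9.20, 9.28 and 9.30 with s18076. Its rise of 0.38 ± 0.05 (adjusted p = 0.000120) was met on its next brightest probe set, at 0.42.

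KLHL15 directs turnover of a B′ subunit of protein phosphatase 2A. It measured 11.04, 10.87 and 10.85 in the controls, 11.20, 11.15 and 11.06 with s18074, 11.39, 11.28 and 11.29 with s18075, and 11.26, 11.29 and 11.18 with s18076. No array overlapped the controls, but the lowest s18074 array, at 11.06, lay close to control replicate 1. KLHL15 rose by 0.31 ± 0.05 in the mean (adjusted p = 0.00134), but its call with s18074 (0.22 ± 0.07, adjusted p = 0.0449) was lost in 10 of the 12 fits that left out 1 array, with adjusted p up to 0.139: all but those without control replicate 1 or s18074 replicate 3.

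KCTD12 is an auxiliary subunit of GABA-B receptors, which it binds through the receptor's GABBR2 chain. Its signal was 12.34, 11.95 and 11.93 in the controls, 11.70, 11.59 and 11.55 with s18074, 11.73, 11.64 and 11.57 with s18075, and 11.28, 11.39 and 11.36 with s18076. All knockdown arrays lay below all controls, and control replicate 1 stood above the other controls. KCTD12 fell by 0.54 ± 0.08 in the mean (adjusted p = 0.000406), or by 0.41 without control replicate 1, and its second, dimmer probe set gave -0.84. GABBR2 was lower with each siRNA, at -0.98, -1.39 and -0.38 with s18074, s18075 and s18076. On its brightest probe set KCTD12 fell most with s18076 (-0.73), where GABBR2 fell least. On the dimmer one KCTD12 fell most with s18074 (-1.01, beside -0.87 with s18076). The F test between siRNAs did not call KCTD12 (adjusted p = 0.0900), so its order over the siRNAs is not settled. GABBR1, the other receptor chain, gave -0.10 ± 0.09 and was not called. KCTD16, another auxiliary subunit, is dim (4.44 ± 0.10 in the controls, SD, n = 3). It gave 0.27 ± 0.09 with an adjusted p of 0.0455, a call lost in 10 of 12 fits without 1 array and kept without s18075 replicate 2 or s18075 replicate 3.

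KCTD15 inhibits the transcription factor TFAP2A in the neural crest. It measured 10.02, 10.04 and 10.10 in the controls, 9.47, 9.72 and 9.68 with s18074, 9.23, 9.29 and 9.39 with s18075, and 9.53, 9.74 and 9.64 with s18076. The groups did not overlap the controls, and the s18075 arrays were lowest. KCTD15 fell by 0.43 ± 0.08 with s18074, 0.75 ± 0.08 with s18075 and 0.41 ± 0.08 with s18076 (mean -0.53 ± 0.06, adjusted p = 9.61e-05). Of its 5 probe sets the 2 brightest were called lower and the dimmest gave 0.24, not called. KCTD1, its closest relative and also a repressor of TFAP2A, rose by 0.35 ± 0.07 (adjusted p = 0.00466) on its brightest probe set, but its next probe set, which is nearly as bright, gave 0.07 and was not called. TFAP2A rose by 0.32 ± 0.05 in the mean. It was called higher with s18074 (0.39) and s18076 (0.54) but not with s18075, where KCTD15 fell most.

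KCTD21 is an adaptor that restrains Hedgehog signalling by way of HDAC1 turnover. It was at 6.79, 6.63 and 6.71 in the controls and between 6.35 and 6.53 in the 9 knockdown arrays, with no overlap. KCTD21 fell by 0.25 ± 0.06, 0.30 ± 0.06 and 0.25 ± 0.06 with s18074, s18075 and s18076. Its calls with s18074 and s18076 were lost without control replicate 1 (adjusted p = 0.0687 and 0.0517). They were also lost without any 1 of the s18074 arrays (0.0524 to 0.0583) and without s18076 replicate 1 (0.0515), respectively. KCTD6, a relative with the same known role, gave -0.08 ± 0.05 in the mean. It was called lower with s18075 alone, by 0.19 ± 0.06, and that call was lost in 8 of the 12 fits without 1 array (adjusted p up to 0.125), among them every fit without a control or s18075 array, and kept without s18074 replicate 2 or 3 or s18076 replicate 1 or 2.

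**Figure D3:**
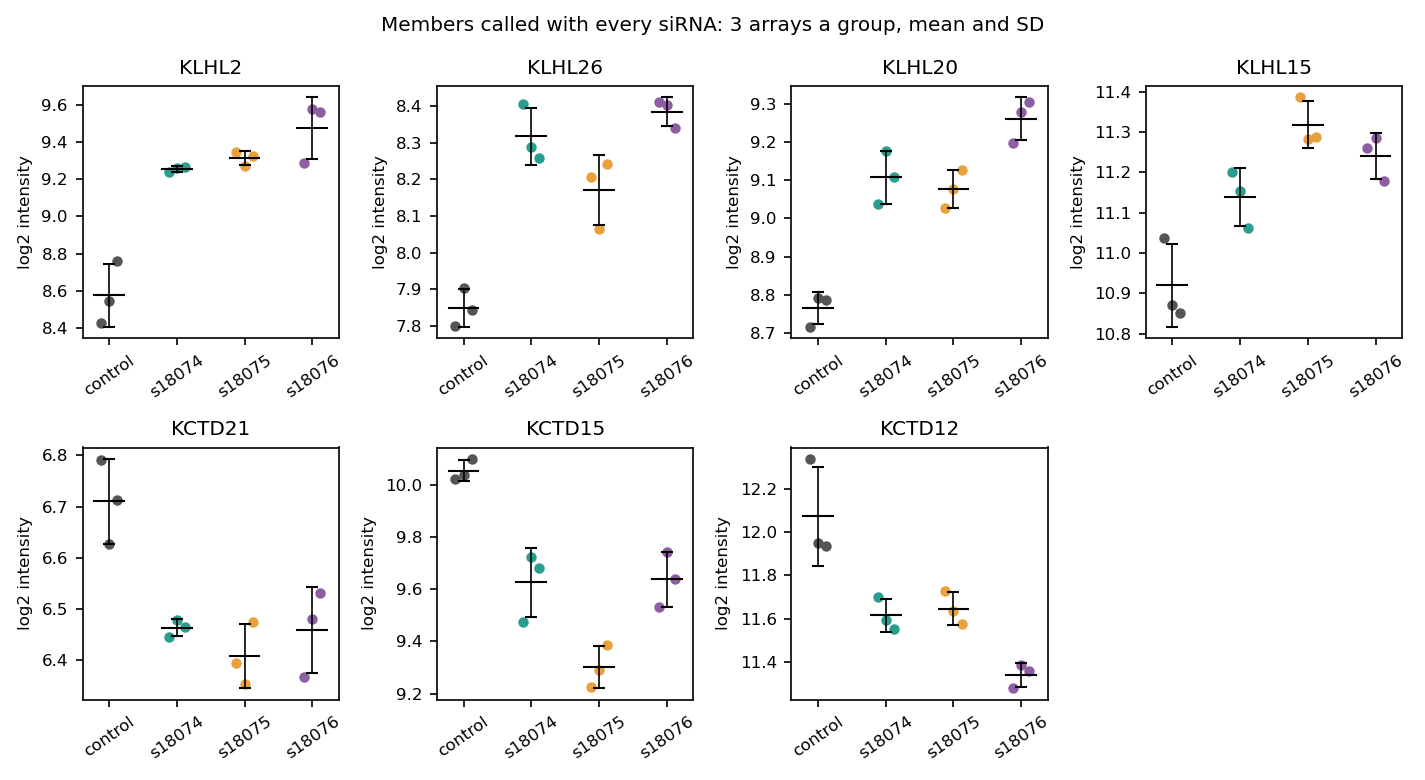
Log2 intensity on each array for the 7 genes called with every siRNA, as points for 3 arrays a group, with the group mean and SD. All 9 knockdown arrays lie above the controls for KLHL2, KLHL26, KLHL20 and KLHL15 and below them for KCTD21, KCTD15 and KCTD12; each panel has its own axis.

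Among all 58 genes, 7 had all 9 knockdown arrays above all controls and 5 had them all below, where 6.78% and 6.43% of all genes did. Besides the 7 genes above these were KLHL11, KLHL31 and KCTD16 higher and KLHL21 and KLHL5 lower. KLHL11, known as the target of a paraneoplastic autoantibody, rose by 0.26 ± 0.04 (adjusted p = 0.000655), from 11.83 to 11.86 in the controls to 11.98 to 12.23 in the knockdown arrays. KLHL21, which brings Aurora B to the spindle midzone, fell by 0.18 ± 0.05 (adjusted p = 0.0163), and its call was lost without control replicate 1 or control replicate 2 (adjusted p up to 0.0887).

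Other kelch genes rose in the mean of the 3 siRNAs. KLHL14, which binds torsinA, rose by 0.40 ± 0.08 in the mean and KLHL42, an adaptor for the microtubule-severing katanin, by 0.33 ± 0.06. The dimmer KLHL14 probe sets gave -0.06 and 0.12 and were not called. KBTBD8, which acts in neural crest specification, and KBTBD7, an adaptor for the Rac activator TIAM1, rose by 0.33 ± 0.06 and 0.31 ± 0.06. KBTBD6, which works with KBTBD7 on TIAM1, gave -0.01 ± 0.04 and was not called with any siRNA. KLHL28 rose by 0.32 ± 0.08, KLHL17, which binds actin in neurons, by 0.26 ± 0.07, the dim muscle gene KLHL31, called with no single siRNA, by 0.24 ± 0.07, and KBTBD2, an adaptor for the p85 subunit of phosphoinositide 3-kinase, by 0.20 ± 0.06.

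Several of these smaller calls lie near the threshold. The call was lost without 1 array in 10 of 12 fits for KBTBD2 and KLHL5 and in 11 for KCTD20. It was lost in 7 fits for KLHL31, whose mean change was 0.16 without control replicate 1, and in 2 each for KLHL17 (without control replicate 1 or 3), KBTBD11 and KLHL28 (both without control replicate 2 or 3). KLHL36 lost it without control replicate 3 (adjusted p = 0.0549). KBTBD2 kept it only without s18074 replicate 1 or s18075 replicate 1, KLHL5 only without s18074 replicate 3 or s18075 replicate 2, and KCTD20 only without s18075 replicate 2. Of the 23 genes called in the mean 13 were called in all 12 such fits, and without control replicate 2 the count was 15, with 11 kelch genes in place of 17. KLHL5 and KCTD20, which promotes Akt activation, had fallen by 0.14 ± 0.04 and 0.13 ± 0.04, and in those fits their fold changes stayed from -0.14 to -0.12.

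The 3 siRNAs did not act alike on all adaptors. The F test between siRNAs called 15 of the 58 genes, 11 kelch and 4 KCTD, where it called 12.6% of all genes. Against s18074, s18075 had 9 adaptors called, 5 higher and 4 lower, where 6.37% of all genes were called, 2.82% higher and 3.55% lower. In s18076 minus s18074 there were 7, 6 higher and 1 lower, where 5.11% of all genes were called, 2.84% higher and 2.27% lower. In s18076 minus s18075 there were 10, 7 higher and 3 lower, where 11.0% of all genes were called, 6.57% higher and 4.44% lower. The count of 7 fell to 3 without s18074 replicate 1 or s18076 replicate 2 and to 4 without s18074 replicate 3 or s18076 replicate 3, and the count of 10 to 6 without s18075 replicate 1.

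KBTBD11 had the widest spread of the 58. It was at 7.17, 7.52 and 7.36 in the controls, 7.30, 7.26 and 7.44 with s18074, 6.53, 6.43 and 6.22 with s18075, and 7.43, 7.48 and 7.56 with s18076. The s18075 arrays alone stood apart, and the others overlapped. KBTBD11 fell by 0.96 ± 0.10 with s18075 and was 1.10 ± 0.10 higher with s18076 than with s18075 (adjusted p = 1.31e-05), so that its fall of 0.28 in the mean is carried by s18075. KLHL36 had the same form: 10.38, 10.45 and 10.66 in the controls, 9.84, 9.91 and 9.85 with s18075, and from 10.35 to 10.54 in the other knockdown arrays. It fell by 0.63 ± 0.07 with s18075 and was lower there than with s18074 by a log2 difference of -0.62 ± 0.07 (adjusted p = 0.000239).

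KCTD17, an adaptor that removes trichoplein when cilia form, also fell with s18075, by 0.35 ± 0.08. It was not called with s18074, where its log2 fold change was +0.08 ± 0.08, or with s18076, where it was +0.13 ± 0.08. The s18075 arrays read 7.96, 7.74 and 7.80, and all others lay between 8.15 and 8.47. A second, dimmer probe set of KCTD17 gave -0.02 with s18075 and was not called. KLHL28 parted s18074 from the other two: the controls read 8.98, 8.83 and 8.87, the s18074 arrays 8.66, 8.69 and 8.85, the s18075 arrays 9.48, 9.41 and 9.36, and the s18076 arrays 9.21, 9.59 and 9.67. The s18075 and s18076 arrays lay above the controls and the s18074 arrays overlapped them. KLHL28 rose by 0.53 ± 0.10 with s18075 and 0.60 ± 0.10 with s18076, and gave -0.16 ± 0.10 with s18074, a difference of 0.76 ± 0.10 between s18076 and s18074 (adjusted p = 0.000817).

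KLHL42 rose by 0.44 ± 0.07 with s18074 and 0.49 ± 0.07 with s18075 but gave 0.06 ± 0.07 with s18076, where its arrays read 9.37, 9.52 and 9.46 beside 9.49, 9.29 and 9.40 in the controls. KLHL7, mutated in a form of retinitis pigmentosa, was the 1 gene called in opposite directions, at -0.20 ± 0.06 with s18074 and 0.21 ± 0.06 with s18076. Neither call was firm: leaving out 1 array removed the first in 9 of 12 fits, all but those without control replicate 1, s18075 replicate 1 or s18076 replicate 1, and the second in 4 (without control replicate 1 or 2 or s18076 replicate 2 or 3). The difference between these siRNAs was 0.41 ± 0.06 (adjusted p = 0.00124). KLHL14 rose by 0.64 ± 0.09 with s18076 and gave 0.19 ± 0.09 with s18074, a difference of 0.45 ± 0.09. Its dimmer probe sets gave -0.03 and 0.09 with s18076 and were not called.

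KCTD10 fell with s18074 by 0.29 ± 0.05 and KCTD13 with s18076 by 0.29 ± 0.06. Neither passed in the mean. A second KCTD10 probe set was called higher with s18075, at 0.37, where the brightest gave -0.02. KLHL12, which enlarges COPII vesicles through SEC31A, fell with s18076 by 0.20 ± 0.05 and gave 0.07 ± 0.05 with s18075. KLHL29 rose with s18076 by 0.30 ± 0.06, while its second probe set was called lower with that siRNA, at -0.35. KLHL8, an adaptor for rapsyn at the nerve-muscle junction, gave 0.26 ± 0.08 with s18076, called, but lost in 7 of 12 fits without 1 array: those without control replicate 1 or 2, s18074 replicate 2 or 3, s18075 replicate 3 or s18076 replicate 2 or 3.

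**Figure D4:**
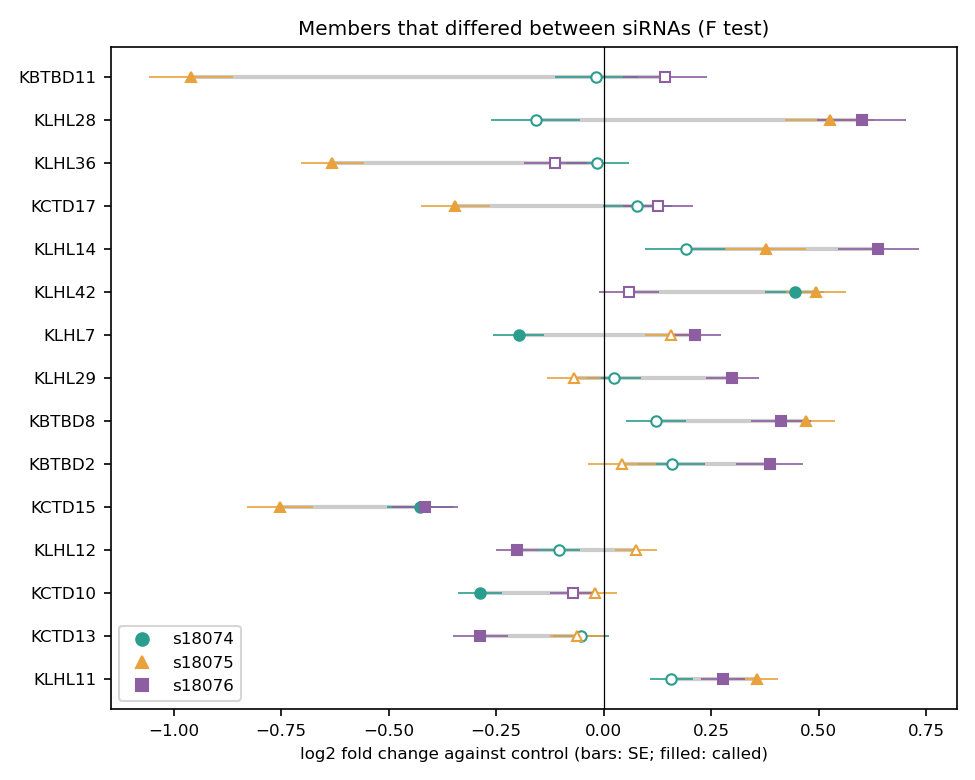
Log2 fold change against control with s18074 (circles), s18075 (triangles) and s18076 (squares) for the 15 genes called by the F test between siRNAs, with the SE as bars and filled symbols for called values. KBTBD11 at the top spans 1.10 from s18075 to s18076, and KLHL11 at the bottom spans 0.20.

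The remaining members did not pass, and the share of all genes called in no contrast was not counted for comparison. In no contrast were 27 of the 58 genes called, 21 kelch and 6 KCTD, on their brightest probe set. Among them were KLHL9 and KLHL13, which act on Aurora B in mitosis (0.02 ± 0.05 and -0.06 ± 0.05 in the mean), KLHL22, an adaptor for PLK1 (0.07 ± 0.05), and KCTD5, which acts on G protein beta-gamma subunits (-0.15 ± 0.07). Others were KLHL18, KLHL23, KLHL24, KLHL25, KBTBD3, KBTBD4, KCTD2, KCTD9 and KCTD18 and the KLHL3 and KBTBD6 already given. KLHL1, KLHL4, KLHL6, KLHL10, KLHL32, KLHL34, KLHL35, KLHL40, KLHL41, KBTBD12, KCTD4 and KCTD19 lay in the dimmest 40% of genes, where calls were fewer. The dimmest in the controls were KLHL32 at 3.28 ± 0.08 and KBTBD12 at 4.09 ± 0.15 (SD, n = 3), with changes of 0.19 ± 0.07 and 0.15 ± 0.10 in the mean, neither called.

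The choice of probe set matters for some genes. Of the 23 genes called in the mean 16 have several probe sets, and for 7 of the 16 another probe set was called the same way in a fit of all probe sets: KCTD12, KCTD15, KLHL20, KLHL11, KLHL28, KLHL42 and KBTBD7. For the other 9 none was, and a further 7 genes have a single probe set. Another 5 genes were called in the mean only on a dimmer probe set. KLHL24, which directs turnover of keratin 14 in skin, is the clearest. Its brightest probe set carries a suffix (_x) that marks possible cross-hybridisation and gave -0.17, not called, while the next 3 gave 0.39, 0.45 and 0.53, all called higher (adjusted p = 0.0359, 0.00221 and 0.0106). KLHL36 had calls in both directions, -0.25 on its brightest probe set and 0.25 on its dimmest, where s18075 gave -0.63 and 0.29. A second probe set of KLHL7 gave -0.25 and one of KLHL18, an adaptor for Aurora A, gave 0.34, both called, beside 0.06 and 0.02 on the brightest.

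**Figure D5:**
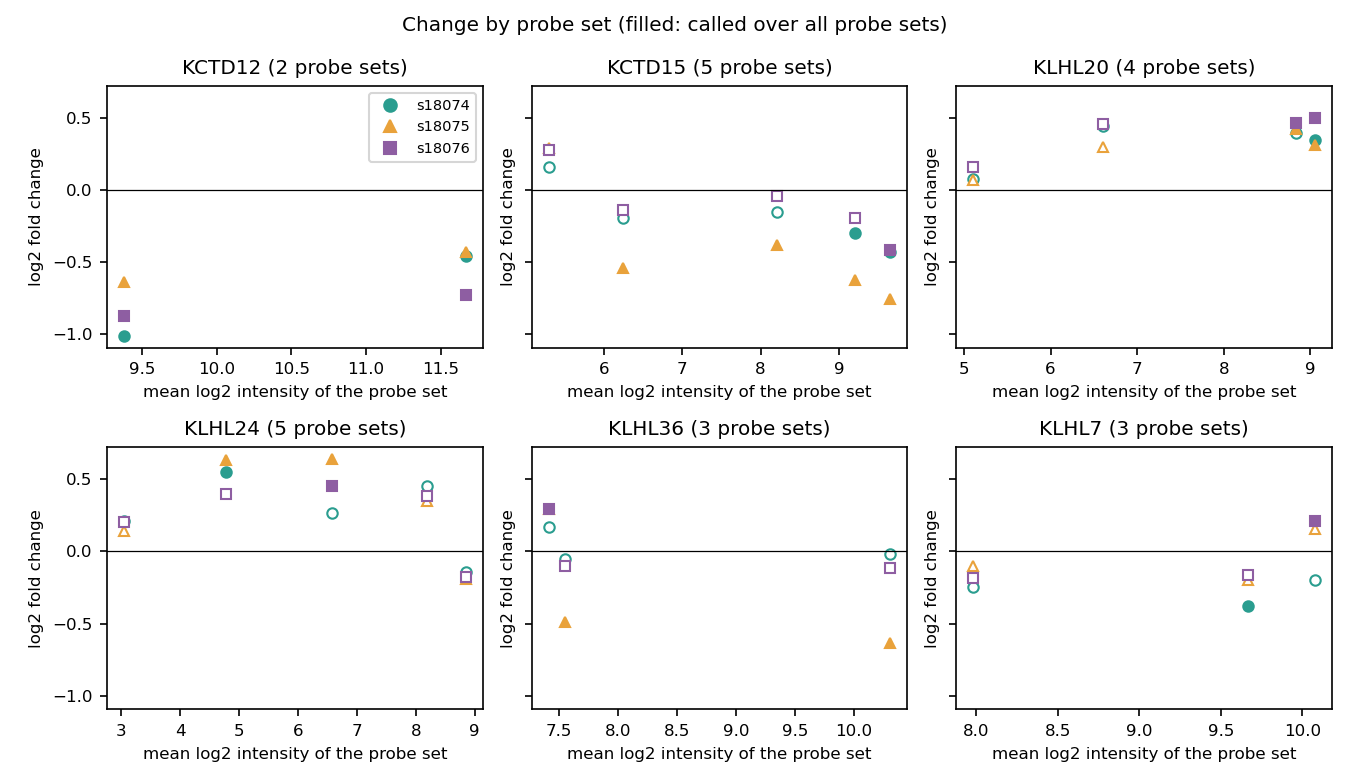
Log2 fold change with each siRNA against the mean log2 intensity of the probe set over all arrays, for 6 genes, with filled symbols where called in a fit of all probe sets. Both KCTD12 probe sets lie below 0, the KLHL24 probe sets lie above 0 except the brightest, and those of KLHL36 and KLHL7 lie on both sides.

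The ligase that the adaptors serve was described from a list of 49 genes, of which 47 were measured: in the mean of the 3 siRNAs 14 rose, 6 fell and 27 did not pass, so 42.6% were called where 20.3% of all genes were. Their median was 0.03, and 13 in place of 20 were called without control replicate 2 or control replicate 3. CUL3, the scaffold, gave 0.06 ± 0.04 and RBX1, its RING partner, -0.03 ± 0.09, neither called with any siRNA, although the mean of all CUL3 probe sets fell by 0.17 (adjusted p = 0.0331). Of 24 genes of the core and its regulators 8 rose and 4 fell, or 33.3% and 16.7%, beside 10.2% each way over all genes. Among genes outside the dimmest 40%, 30.6% were called, 15.2% higher and 15.4% lower. The 16.7% that fell lies near that last share. The part of signal level in the shares of this list was not tested. CAND1, which exchanges adaptors on cullins, rose by 0.35 ± 0.06, and COPS8, a subunit of the COP9 signalosome that removes NEDD8, by 0.31 ± 0.05. Those that fell were COPS7A (-0.32 ± 0.10), a NEDD8-conjugating enzyme gene, UBE2F (-0.29 ± 0.05), ARIH1 (-0.21 ± 0.05) and DCUN1D5 (-0.17 ± 0.05). Whether UBE2F acts on cullin 3 was not examined here. The COPS7A call was lost in 8 of 12 fits without 1 array (adjusted p up to 0.230) and kept without control replicate 3, s18074 replicate 1, s18075 replicate 1 or s18076 replicate 1. The DCUN1D5 call was lost without control replicate 1 or 2 (adjusted p up to 0.0963). Another ARIH1 probe set was called higher, at 0.26.

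Of 23 other BTB adaptors on the list 6 rose and 2 fell, or 26.1% and 8.70%. SPOPL, the close relative of the adaptor SPOP, rose furthest. Its controls read 8.98, 9.02 and 8.99, beside 10.12, 10.20 and 10.15 with s18074, 9.30, 9.33 and 9.37 with s18075, and 10.14, 10.32 and 10.29 with s18076. No arrays overlapped the controls, and the s18075 arrays lay nearest to them, at a fold change of 0.34 against 1.16 and 1.25. RCBTB2 rose by 0.33 ± 0.06, ENC1 by 0.31 ± 0.05 and BTBD10 by 0.28 ± 0.05, while ARMC5 fell by 0.19 ± 0.06 and LZTR1, an adaptor for RAS proteins, by 0.16 ± 0.04. ARMC5 lost its call without any 1 of the control arrays or s18074 replicate 3 (adjusted p up to 0.102), and LZTR1 without control replicate 3 (0.0524).

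Of 29 measured genes known as substrates or partners of these adaptors 5 rose and 7 fell in the mean, 41.4% of the list beside 20.3% of all genes. The list was drawn up with earlier results of these data known, and 30.6% of genes outside the dimmest 40% were called. GNB1, the G protein beta subunit on which KCTD5 acts, read 11.43, 11.57 and 11.57 in the controls and from 11.98 to 12.16 in the 9 knockdown arrays. It rose by 0.52 ± 0.05 (adjusted p = 2.19e-05), with no overlap. The kinases that KLHL2 and KLHL3 present moved apart, WNK1 rising by 0.27 ± 0.05 and the dim WNK4 falling by 0.39 ± 0.09. Without control replicate 2 WNK4 gave -0.26 and was not called (adjusted p = 0.0752). DVL3, a target of KLHL12, fell by 0.38 ± 0.06 and RHOB, a target of KCTD10, by 0.33 ± 0.07. KATNA1, the katanin subunit that KLHL42 targets, gave 0.19 ± 0.06, a call lost in 10 of 12 fits without 1 array and kept without control replicate 1 or s18075 replicate 2.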

How the data were processed

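RNA from HEK293T cells was extracted with RNeasy columns and 300 ng was made into labelled cRNA for Affymetrix arrays, per the labels' protocols. Per the submitters' processing notes, the authors used RMA and affy 1.24.2 to make the deposited intensity of each probe set. The values, from 4.36 to 33219, are on a linear scale, so log2 was taken here of the deposited intensity with no pseudocount. RMA sets arrays to a like distribution and would remove a change shared by all genes.

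Of 54675 probe sets 41091 name 1 gene in GEO's platform annotation, 1801 several and 11721 none, besides 62 controls. The Entrez identifiers of 41037 were found in a RefSeq table of GRCh38.p14, and 0 symbols changed. The brightest probe set stood for a gene, and probe sets naming several genes were left out.

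limma 3.58.1 in R 4.3.3 (lmFit, contrasts, eBayes, 8 residual degrees of freedom) was run on all 19775 genes and 12 arrays, after a test on simulated data. A call needed an adjusted p (Benjamini-Hochberg) under 0.05. The genes and lists were chosen with earlier results of these data known. Named with values were MED26, members called in the mean or with all siRNAs, those with the widest spread between siRNAs, the largest calls of each siRNA, the brightest and dimmest in the controls, members with conflicting probe sets, and the largest calls of the pathway and partner lists. Relatives and other members were added after their values were seen. Alternatives changed the scaling, a log offset of 16, the dim filter, the probe set rule, the variance model, array weights, replicate terms, the arrays fitted and the threshold.

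Markers of HEK293T, fibroblasts, blood cells and other carcinoma lines were listed as checks. Of 5 blood cell and 5 carcinoma line markers measured, 0 were called in the mean by limma. The carcinoma line markers summed to between 12.4 and 12.5 in the controls, almost all of it CDKN2A.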

Additional observations from a re-analysis of the deposited data

Results flagged for a closer look

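For 16 of the 58 genes the effects of the 3 siRNAs differed from each other, 15 by the F test between siRNAs and KCTD20 only in the direct contrast of s18076 with s18075. Over all genes the F test called 12.6%, and the share under both rules together was not counted. The values here are the ranges between the highest and the lowest log2 fold change of the 3 siRNAs. Among the kelch genes the range was 1.10 for KBTBD11, 0.76 for KLHL28, 0.62 for KLHL36, 0.45 for KLHL14, 0.44 for KLHL42, 0.41 for KLHL7, 0.37 for KLHL29, 0.35 for KBTBD8, 0.34 for KBTBD2, 0.28 for KLHL12 and 0.20 for KLHL11. Among the KCTD genes it was 0.47 for KCTD17, 0.34 for KCTD15, 0.27 for KCTD10, 0.23 for KCTD13 and 0.18 for KCTD20. On its brightest probe set MED26 was depleted least by s18075, and the part of that difference in these ranges was not tested.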

How the results depend on the processing

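Groups of 3 arrays limit the precision, and dim genes have the least signal over background. The counts in this section stand without the share of all genes called under the same alternative. They show only how the counts of listed genes moved. At an adjusted p under 0.01 the count of adaptors called in the mean was 14 in place of 23, with 10 kelch genes, and 10 genes of the pathway list. It gave 7 with s18074, 3 in s18076 minus s18074, and 6 in s18076 minus s18075. With a log2 fold change of at least 0.3 also required, the counts were 12 in the mean, 9 kelch, 3 KCTD, 6 of the pathway list, 7 with s18074, 13 with s18076 and 4 between s18076 and s18074. On replicates 2 and 3 alone 7 were called with s18074 and 3 between s18076 and s18074, which is fewer arrays. Between s18076 and s18074 a term for replicate 1 gave 11, and a fit of those groups only gave 3. Array weights gave 16 between s18076 and s18075. The causes of these last 3 were not tested. Every other count was within 1.5 times under the other alternatives, leaving out an array aside.

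Leaving out 1 array gave from 15 to 21 adaptors called in the mean, 8 to 13 with s18074, 17 to 21 with s18075, 17 to 21 with s18076, and 11 to 15 by the F test. It gave 7 to 10 in s18075 minus s18074, 3 to 8 in s18076 minus s18074, and 6 to 11 in s18076 minus s18075. It gave 11 to 17 kelch genes, 4 to 6 KCTD genes, and 13 to 20 of the pathway list, and MED26 between -0.94 and -0.90. With the replicate block 26 adaptors were called in the mean, 19 kelch and 7 KCTD. After removing group means, arrays numbered 1 correlated at 0.33 to 0.44 across groups, those numbered 2 at -0.024 to 0.25 and those numbered 3 at 0.034 to 0.17, so replicate 1 arrays shared a shift and the numbers were not taken as pairs. A term for replicate 1 gave 28 called in the mean, 21 kelch and 7 KCTD.

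Of 8279 single values under an alternative, for 324 values, 7657 stayed on their side of the threshold, 429 lost a call, 168 gained one and 25 reversed. A reversal was counted only where the value was called in the fit given above or under the alternative. Uncalled values that changed sign are therefore among the 7657. All 25 reversals came from reading other probe sets. With a gene's probe sets averaged, KLHL24 gave 0.28 in the mean and 0.27, 0.31 and 0.25 with s18074, s18075 and s18076, KCTD10 0.18 with s18075, and KLHL29 -0.028 and KLHL7 -0.045 with s18076. ARIH1 gave 0.073 in the mean and 0.10 with s18074, and CUL3 -0.17 in the mean, -0.22 with s18075 and -0.20 with s18076. With all probe sets tested, KLHL24 gave 0.45 in the mean and 0.55, 0.64 and 0.45 with the 3 siRNAs, KCTD10 0.37 with s18075, KLHL29 -0.32 and KLHL7 -0.25 in the mean, and KLHL36 0.29 with s18076. ARIH1 gave 0.26 in the mean and 0.23, 0.27 and 0.28 with the 3 siRNAs, and CUL3 -0.25 in the mean.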
